A study of Arabidopsis thaliana with 12 samples.

Results

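Type-A response regulators are small nuclear and cytosolic proteins that carry a receiver domain and little else, and that act as negative feedback regulators of cytokinin signalling in Arabidopsis. The 10 genes ARR3 to ARR9, ARR15, ARR16 and ARR17 were taken by gene identifier from a table of 32833 genes, and all 10 were found. Earlier results of these data were known when they were chosen. Gene expression had been measured by RNA sequencing of poly(A) RNA from whole Arabidopsis thaliana seedlings of the accession Col-0, aged 10 days, grown in liquid medium with 6 seeds per well and treated for 6 h. The 4 groups were 600 nM isoxaben together with 10 nM PEP3, 600 nM isoxaben alone, 10 nM PEP3 alone, and a DMSO mock, with 3 libraries each, and the same amount of DMSO was present in every group. The series design calls the 3 libraries biological replicates. In the main test, p-values set a difference against the spread between libraries of the same group, estimated from all 4 groups. Isoxaben is a herbicide that blocks cellulose synthesis, and PEP3 is a plant elicitor peptide that the receptor kinases PEPR1 and PEPR2 bind. The comparisons address what each agent alone, and the pair together, did to transcript levels.

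In the cytokinin pathway, histidine kinase receptors at membranes bind the hormone and pass a phosphate through AHP phosphotransfer proteins to response regulators in the nucleus. Type-B response regulators are transcription factors, and the genes of most type-A regulators are among their direct targets, which is why type-A transcripts are widely used as a readout of cytokinin response. Type-A proteins lack the DNA-binding domain and damp the pathway when phosphorylated. Several have to be removed together before seedlings become visibly hypersensitive to the hormone.

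ARR6 was the member that was lower under every treatment, and ARR8 and ARR9 were lower under isoxaben with PEP3. ARR6 averaged 7.45 ± 0.946 FPKM in isoxaben plus PEP3, 8.73 ± 1.65 FPKM in isoxaben and 9.48 ± 0.593 FPKM in PEP3, against 12.8 ± 0.437 FPKM in DMSO (SD, n = 3 each). FPKM are fragments per kilobase of gene, scaled to the depth of each library. ARR16 and ARR9 were lower under isoxaben alone. No member passed the test in the higher direction in any comparison, and ARR3 and ARR7 had means under isoxaben that lay above the DMSO mean. The 4 members ARR3, ARR4, ARR5 and ARR7 and the low ARR15 passed no test in any comparison, and ARR17 was too low to be tested.

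The promoters of the 4 members that passed a test are shown, with those of ARR5 and ARR7, which passed none, beside them. Each sequence is the coding strand of the gene from 250 bases before to 50 bases after the RefSeq start in the TAIR10.1 build, and capitals mark AGATT, the core bound by type-B response regulators, in either orientation.
ARR6 (chr5:25254269-25254568, minus strand): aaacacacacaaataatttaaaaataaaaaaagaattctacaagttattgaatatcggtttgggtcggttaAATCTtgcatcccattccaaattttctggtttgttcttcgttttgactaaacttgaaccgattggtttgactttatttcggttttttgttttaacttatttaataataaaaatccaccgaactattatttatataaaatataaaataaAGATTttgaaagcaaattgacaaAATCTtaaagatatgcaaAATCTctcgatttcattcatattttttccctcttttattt
ARR8 (chr2:17221590-17221889, plus strand): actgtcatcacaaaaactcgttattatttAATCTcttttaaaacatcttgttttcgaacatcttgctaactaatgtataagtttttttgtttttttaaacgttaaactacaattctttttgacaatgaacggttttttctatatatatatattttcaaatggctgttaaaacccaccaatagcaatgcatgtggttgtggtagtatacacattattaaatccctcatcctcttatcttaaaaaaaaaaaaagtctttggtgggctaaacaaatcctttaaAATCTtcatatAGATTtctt
ARR9 (chr3:21108809-21109108, plus strand): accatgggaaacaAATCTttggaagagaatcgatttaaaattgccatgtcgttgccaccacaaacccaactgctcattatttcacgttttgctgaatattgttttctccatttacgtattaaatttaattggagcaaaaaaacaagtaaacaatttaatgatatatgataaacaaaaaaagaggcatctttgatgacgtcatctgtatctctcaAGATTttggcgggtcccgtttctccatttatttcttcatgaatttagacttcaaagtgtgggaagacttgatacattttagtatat
ARR16 (chr2:16969423-16969722, plus strand): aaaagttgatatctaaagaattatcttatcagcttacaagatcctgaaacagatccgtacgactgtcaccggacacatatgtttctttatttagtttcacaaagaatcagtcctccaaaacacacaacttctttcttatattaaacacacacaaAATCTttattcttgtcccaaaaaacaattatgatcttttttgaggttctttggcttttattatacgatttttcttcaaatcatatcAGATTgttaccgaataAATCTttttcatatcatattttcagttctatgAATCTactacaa
ARR5 (chr3:17760901-17761200, minus strand): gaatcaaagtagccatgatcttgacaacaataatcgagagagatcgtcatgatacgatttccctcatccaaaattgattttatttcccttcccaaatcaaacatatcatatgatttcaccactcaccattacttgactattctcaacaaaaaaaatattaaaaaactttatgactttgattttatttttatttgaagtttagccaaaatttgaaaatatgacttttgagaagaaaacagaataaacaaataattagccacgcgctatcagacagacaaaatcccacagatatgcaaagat
ARR7 (chr1:6579265-6579564, minus strand): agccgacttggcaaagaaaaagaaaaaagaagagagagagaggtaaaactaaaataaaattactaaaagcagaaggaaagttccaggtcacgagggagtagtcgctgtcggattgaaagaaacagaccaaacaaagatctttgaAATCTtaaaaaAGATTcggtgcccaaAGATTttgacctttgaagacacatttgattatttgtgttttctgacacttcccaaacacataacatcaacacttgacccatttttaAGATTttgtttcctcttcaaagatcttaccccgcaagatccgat
The core AGATT or its reverse complement was present in 9 of the 10 members' windows, against 69.7% of the 27443 windows of the same length in the annotation. ARR6, ARR7 and ARR16 had 4 matches each, ARR8 had 3, ARR9 and ARR15 had 2, and ARR3, ARR4 and ARR17 had 1. ARR5 had 0 matches. In ARR6 the matches lay 179, 31 and 8 bases before the start and 10 bases after it. The number of matches therefore did not separate the members that passed a test from those that did not, since ARR7 with 4 matches passed none. The 6-base motif AGATCT, a further form read by type-B regulators, was present in ARR7 only among the members and in 7.38% of all windows. The W-box letters TTGACC, read by WRKY factors, were in ARR7 and in 14.2% of all windows, and TTGACT was in ARR5 and ARR6 and in 21.8% of all windows. The G-box CACGTG and the GCC-box GCCGCC were in 0 members, against 7.68% and 2.57% of all windows. All motifs were searched on both strands, AGATCT and CACGTG read the same on both, and AGATT and AGATCT cannot cover each other.

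By sequence the 10 proteins fall into 5 pairs, which are used to order the results. From the longest coding model of each gene, translated from the TAIR10.1 annotation, ARR16 and ARR17 were 88.0% identical, ARR5 and ARR6 81.4%, ARR3 and ARR4 79.1%, ARR8 and ARR9 74.4%, and ARR7 and ARR15 72.8%. The lengths ranged between 154 residues for ARR17 and 323 residues for ARR3. At the nucleotide level the longest match of each member elsewhere in the genome had between 66.8% and 71.1% identity. Shorter matches of higher identity were not examined, so these values do not settle whether reads could be shared.

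Levels spanned a wide range between members. In DMSO libraries the order of the mean levels per length was ARR4, ARR8, ARR9, ARR7, ARR6, ARR5, ARR3, ARR16, ARR15 and ARR17, high to low. ARR4 held 35.7% to 41.6% of the summed level of all 10 members and ranked first in each of the 12 libraries. Neighbours whose DMSO libraries overlapped were ARR9 and ARR7, ARR7 and ARR6, ARR5 and ARR3, and ARR3 and ARR16. ARR7 ranked second in isoxaben and in isoxaben plus PEP3, where its libraries overlapped with those of ARR8, and below ARR8 and ARR9 in PEP3 and in DMSO. The summed level was 103 ± 10.8 FPKM in isoxaben plus PEP3, 114 ± 6.37 FPKM in isoxaben and 118 ± 10.6 FPKM in PEP3, against 129 ± 4.92 FPKM in DMSO (SD, n = 3 each). In whole seedlings, fewer cells that express a gene and less RNA per cell cannot be told apart.

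**Figure D1:**
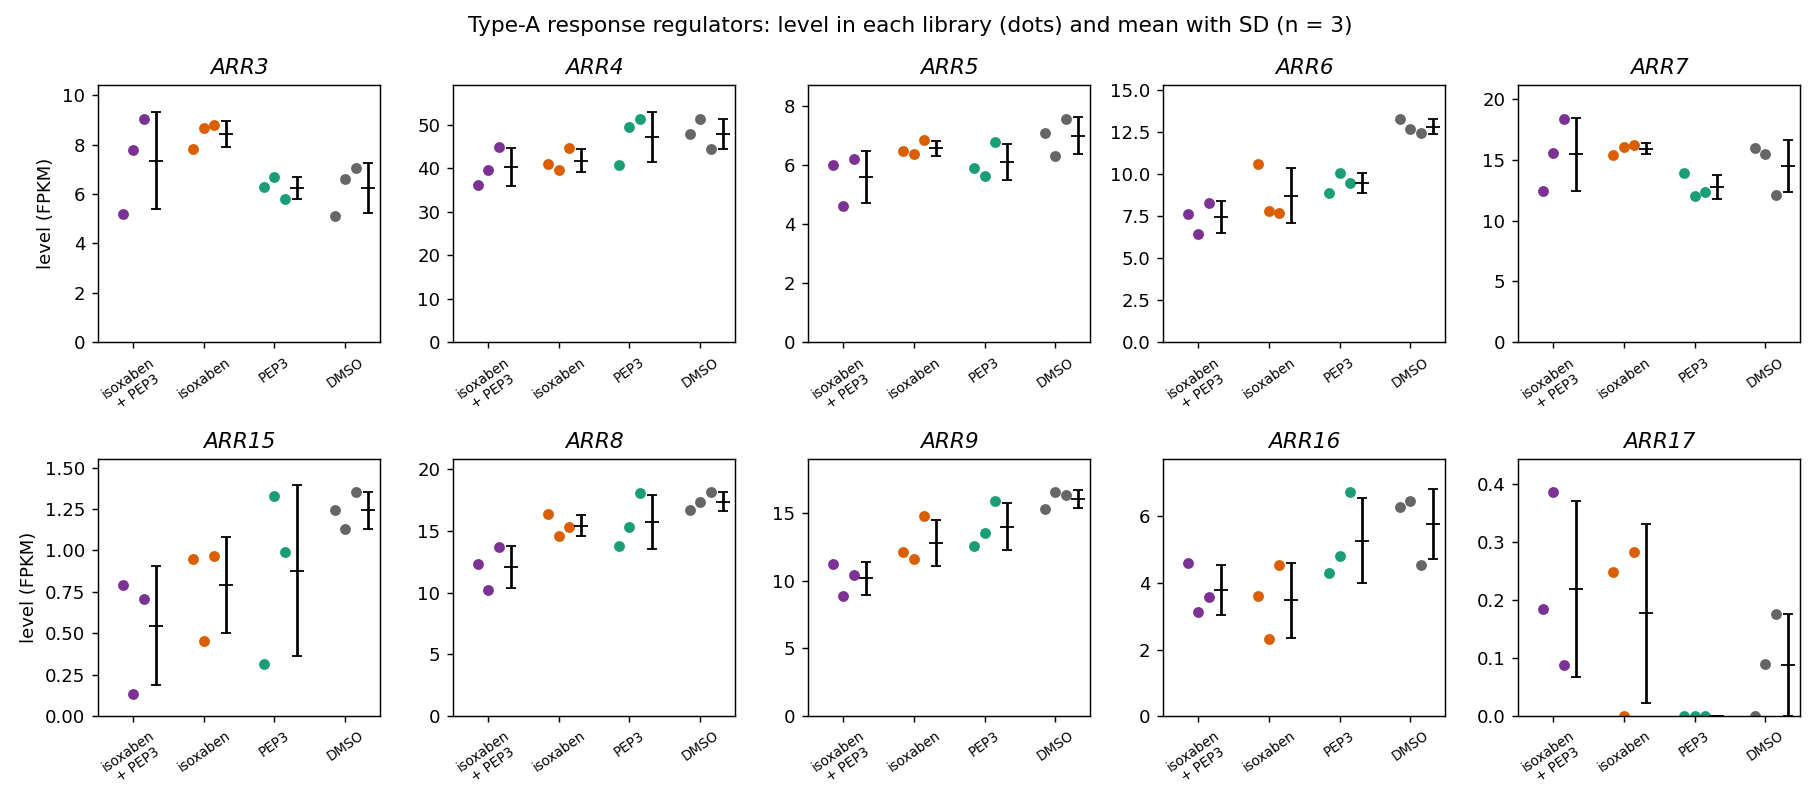
Level in FPKM (vertical axis, starting at 0, its own scale for each gene) of the 10 type-A response regulators in the 12 libraries, with 1 dot per library and the mean with its SD (n = 3) to the right. ARR6 lies below its DMSO libraries in all 9 treated libraries, and ARR8 and ARR9 do so in the isoxaben plus PEP3 and isoxaben libraries. ARR17 does not exceed 0.385 FPKM, which its own scale enlarges.

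ARR6 (AT5G62920, chr5:25252007-25254318, minus strand) and ARR5 (AT3G48100, chr3:17758427-17760950, minus strand) are a pair of strongly cytokinin-inducible regulators. ARR6 had 7.64, 6.43 and 8.29 FPKM in isoxaben plus PEP3, 10.6, 7.84 and 7.72 FPKM in isoxaben and 8.88, 10.1 and 9.50 FPKM in PEP3, against 13.3, 12.7 and 12.5 FPKM in DMSO. Every treated library was below every DMSO library. ARR6 changed by -0.72 on the log2(FPKM + 1) scale in isoxaben plus PEP3 against DMSO (95% interval -0.96 to -0.47, limma adjusted p = 0.000358), by -0.52 in isoxaben (-0.77 to -0.27, adjusted p = 0.00323) and by -0.40 in PEP3 (-0.65 to -0.15, adjusted p = 0.0338). Its linear mean in isoxaben plus PEP3 was 58.1% of the DMSO mean. The PEP3 call was lost whenever 1 of the 3 PEP3 or 1 of the 3 DMSO libraries was left out, with adjusted p between 0.0626 and 0.113, and the change then lay between -0.44 and -0.36.

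ARR5 is the regulator whose promoter is commonly fused to reporters of cytokinin response. It had 6.00, 4.59 and 6.19 FPKM in isoxaben plus PEP3, 6.46, 6.35 and 6.84 FPKM in isoxaben and 5.91, 5.62 and 6.76 FPKM in PEP3, against 7.07, 6.31 and 7.56 FPKM in DMSO. The isoxaben plus PEP3 libraries lay below the DMSO libraries, and the other treated groups overlapped with them. The difference in isoxaben plus PEP3 was -0.28 (95% interval -0.52 to -0.04, limma adjusted p = 0.0682), and in isoxaben it was -0.08 (-0.31 to 0.16, adjusted p = 0.642). The difference in isoxaben plus PEP3 passed with quantile normalization (0.0367), and without isoxaben plus PEP3 replicate 2 it was -0.17 (0.280). An overlap with a gene on the opposite strand touches ARR6: AT5G62910 covers 348 bases, 15.1% of the gene, and whether fragments were assigned by strand is not stated in the labels. AT5G62910 had 11.7 ± 0.847 FPKM in isoxaben plus PEP3, 12.7 ± 0.884 FPKM in isoxaben and 9.66 ± 0.677 FPKM in PEP3, against 11.3 ± 0.384 FPKM in DMSO (SD, n = 3 each), and it passed the test in none of the comparisons with DMSO.

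ARR8 (AT2G41310, chr2:17221840-17224880, plus strand) and ARR9 (AT3G57040, chr3:21109059-21111567, plus strand) are a pair of which both members passed a test. ARR8 had 12.3, 10.2 and 13.7 FPKM in isoxaben plus PEP3, 16.3, 14.6 and 15.3 FPKM in isoxaben and 13.7, 15.3 and 18.1 FPKM in PEP3, against 16.6, 17.3 and 18.1 FPKM in DMSO. ARR9 had 11.2, 8.84 and 10.5 FPKM in isoxaben plus PEP3, 12.1, 11.6 and 14.8 FPKM in isoxaben and 12.5, 13.5 and 15.9 FPKM in PEP3, against 15.3, 16.5 and 16.3 FPKM in DMSO. For both genes the isoxaben plus PEP3 libraries lay below all DMSO and all isoxaben libraries, and the isoxaben libraries lay below all DMSO libraries. ARR9 fell by 0.61 on the log2 scale in isoxaben plus PEP3 against DMSO (95% interval -0.85 to -0.38, limma adjusted p = 0.000803), and ARR8 fell by 0.50 (-0.73 to -0.27, adjusted p = 0.00300). Linear means were 63.4% of the DMSO mean for ARR9 and 69.5% for ARR8.

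Under isoxaben alone ARR9 fell by 0.31 (95% interval -0.55 to -0.07, limma adjusted p = 0.0467), while ARR8 differed by -0.16 with an adjusted p of 0.285. The ARR9 call was close to the threshold and was lost without DMSO replicate 1 (adjusted p = 0.0685), 2 (0.123) or 3 (0.104), isoxaben replicate 1 (0.136) or 2 (0.164), PEP3 replicate 2 (0.0591) or isoxaben plus PEP3 replicate 3 (0.0570). Under PEP3 alone neither gene passed the test. The table lists a long non-coding RNA on the opposite strand of each gene, covering 299 bases of ARR8 and 231 bases of ARR9, and both were listed at 0 in all 12 libraries.

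ARR16 (AT2G40670, chr2:16969673-16972113, plus strand) and ARR17 (AT3G56380, chr3:20905264-20906397, plus strand) are the members with the shortest proteins. ARR16 had 4.60, 3.14 and 3.58 FPKM in isoxaben plus PEP3, 3.60, 2.30 and 4.53 FPKM in isoxaben and 4.29, 4.81 and 6.73 FPKM in PEP3, against 6.28, 6.46 and 4.55 FPKM in DMSO. The isoxaben libraries lay below the DMSO libraries, the highest of them at 4.53 FPKM just under the lowest DMSO value of 4.55 FPKM. ARR16 fell by 0.61 in isoxaben (95% interval -1.04 to -0.19, limma adjusted p = 0.0291). In isoxaben plus PEP3 its difference was -0.50 with an adjusted p of 0.0714. This passed without DMSO replicate 3 (0.0419) or isoxaben replicate 2 (0.0382), with the compared groups only (0.0317) and with voom (0.0319). The isoxaben call was lost without DMSO replicate 1 (adjusted p = 0.0972) or 2 (0.101) and without isoxaben replicate 1 (0.0517) or 2 (0.135).

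ARR17 was at the detection limit. It had 0.184, 0.385 and 0.0885 FPKM in isoxaben plus PEP3, 0.249, 0 and 0.282 FPKM in isoxaben and 0 FPKM in each of the 3 PEP3 libraries, against 0, 0.0897 and 0.175 FPKM in DMSO. These values stand for 2, 5 and 1 fragments in isoxaben plus PEP3, 3, 0 and 3 in isoxaben, 0 in each PEP3 library, and 0, 1 and 2 in DMSO. A count of 0 allows up to 3 fragments, which was 0.217 to 0.282 FPKM in these libraries. That limit covers counting error only, and the isoxaben plus PEP3 library with 5 fragments lay above it. Differences between groups were not tested for ARR17.

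ARR4 (AT1G10470, chr1:3441988-3444360, minus strand) and ARR3 (AT1G59940, chr1:22065617-22067233, minus strand) are the pair with the longest proteins, and ARR4 is known to bind the photoreceptor phytochrome B. ARR4 had 36.2, 39.6 and 44.9 FPKM in isoxaben plus PEP3, 40.8, 39.5 and 44.6 FPKM in isoxaben and 40.7, 49.4 and 51.4 FPKM in PEP3, against 47.8, 51.3 and 44.4 FPKM in DMSO. All 3 treated groups overlapped with DMSO. Its difference in isoxaben plus PEP3 was -0.25 (limma adjusted p = 0.0716). This passed without isoxaben plus PEP3 replicate 3 (0.0315) or PEP3 replicate 1 (0.0395), with quantile normalization (0.0397) and with voom (0.0421).

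ARR3 went the other way. It had 5.21, 7.77 and 9.06 FPKM in isoxaben plus PEP3, 7.81, 8.66 and 8.81 FPKM in isoxaben and 6.27, 6.70 and 5.81 FPKM in PEP3, against 5.09, 6.60 and 7.04 FPKM in DMSO. The isoxaben libraries lay above the DMSO libraries. Those of isoxaben plus PEP3 were spread from 5.21 FPKM, within the DMSO range, to 9.06 FPKM, above all isoxaben libraries. The difference in isoxaben was 0.39 (95% interval 0.06 to 0.72, limma adjusted p = 0.0715), which did not pass, but passed without isoxaben plus PEP3 replicate 1 (0.0182) or 3 (0.0461), with the compared groups only (0.0377) and with voom (0.0464). In isoxaben plus PEP3 it was 0.19 (-0.15 to 0.52, adjusted p = 0.404). Without isoxaben plus PEP3 replicate 1, the library with 5.21 FPKM, it was 0.38 with an adjusted p of 0.0391, and it was 0.04 without replicate 3 of that group and 0.07 without DMSO replicate 1.

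ARR7 (AT1G19050, chr1:6577833-6579314, minus strand) and ARR15 (AT1G74890, chr1:28131447-28133025, minus strand) are regulators with a known role in the shoot apical meristem. ARR7 had 12.4, 15.5 and 18.4 FPKM in isoxaben plus PEP3, 15.4, 16.1 and 16.2 FPKM in isoxaben and 13.9, 12.0 and 12.4 FPKM in PEP3, against 16.0, 15.5 and 12.1 FPKM in DMSO. Its groups all overlapped with DMSO, and the difference in isoxaben plus PEP3 was 0.08 (95% interval -0.19 to 0.35, limma adjusted p = 0.688). The interval does not show that its level was the same.

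ARR15 was the lowest of the members tested. It had 0.791, 0.132 and 0.710 FPKM in isoxaben plus PEP3, 0.949, 0.455 and 0.968 FPKM in isoxaben and 0.317, 1.33 and 0.988 FPKM in PEP3, against 1.25, 1.13 and 1.35 FPKM in DMSO. These values rest on 3 to 29 fragments per library. The isoxaben plus PEP3 and the isoxaben libraries lay below the DMSO libraries, but the differences of -0.57 and -0.34 had limma adjusted p of 0.0743 and 0.290. The isoxaben plus PEP3 difference passed without PEP3 replicate 1 (0.0398) and with the compared groups only (0.0498), and without isoxaben plus PEP3 replicate 2, the library with 0.132 FPKM, it was -0.36 (0.283). The pseudocount of 1 shrinks differences at this level: with 0.1 it was -1.28 (0.0939), and voom on recovered fragments gave -1.55 (0.0496).

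Taking the comparisons in turn, isoxaben against DMSO called 3 of the 9 members tested, ARR6, ARR9 and ARR16, all lower. Of all 20248 genes tested, 32.5% were called in that comparison and 15.2% were called lower, so that the share of members called in either direction was near the background. The median difference of the 9 members was -0.20, against -0.01 for all genes tested. The libraries of 5 members, ARR6, ARR8, ARR9, ARR15 and ARR16, lay wholly below DMSO, against 22.2% of all genes tested, and those of ARR3 lay wholly above, against 23.0% of all genes.

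PEP3 against DMSO called 1 member, ARR6, as lower. The background was 14.3% of genes called and 6.45% called lower, and 15.4% of genes had libraries wholly below DMSO, as ARR6 did alone among the members. The other 8 members had adjusted p between 0.297 and 0.976, and the median of the 9 members was -0.17 against 0.01 for all genes.

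Isoxaben plus PEP3 against DMSO called 3 members, ARR6, ARR8 and ARR9, all lower, against 31.4% of all genes called and 14.4% called lower. The libraries of 5 members, ARR5, ARR6, ARR8, ARR9 and ARR15, lay wholly below DMSO, against 21.8% of all genes. An unadjusted p under 0.05 was reached by 7 members, against 40.9% of all genes, and the median of the 9 members was -0.50 against -0.00156 for all genes. This comparison shares its DMSO libraries with the preceding ones.

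Adding PEP3 to isoxaben, that is isoxaben plus PEP3 against isoxaben, called 0 of 9 members by limma, with 7.41% of all genes called. At an unadjusted p under 0.05 there were 2 members, against 21.8% of all genes, so that this share was near the background. Limma's voom on recovered fragments called 1, ARR8 (adjusted p = 0.0390), among 1840 genes. ARR8 differed by -0.34 (limma adjusted p = 0.0794) and ARR9 by -0.31 (0.119), and the libraries of ARR5, ARR8 and ARR9 lay wholly below those of isoxaben, against 13.0% of all genes. Adding isoxaben to PEP3 called ARR9, which fell by 0.42 (95% interval -0.66 to -0.19, adjusted p = 0.0305), against 8.26% of all genes called and 2.25% called lower. That call was lost without PEP3 replicate 2 (adjusted p = 0.0649) or 3 (0.125) and without isoxaben plus PEP3 replicate 2 (0.137) or 3 (0.0663). ARR8 differed by -0.35 (adjusted p = 0.0621) and passed without PEP3 replicate 1 (0.0371) or isoxaben plus PEP3 replicate 3 (0.0381). It also passed with quantile normalization (0.0465), a replicate block (0.0463) and voom (0.0288).

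The interaction asks whether the effect of isoxaben plus PEP3 differs from the sum of the single effects on the log2 scale. Limma called 0 of 9 members, 0 passed at an unadjusted p under 0.05 and voom called 0, with 6.24% of all genes called and 20.8% at an unadjusted p under 0.05. Estimates ranged between -0.21 and 0.23. For ARR6 the estimate was 0.20 (95% interval -0.15 to 0.56), and for ARR8 it was -0.19 (-0.52 to 0.14), and neither interval excludes 0.

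**Figure D2:**
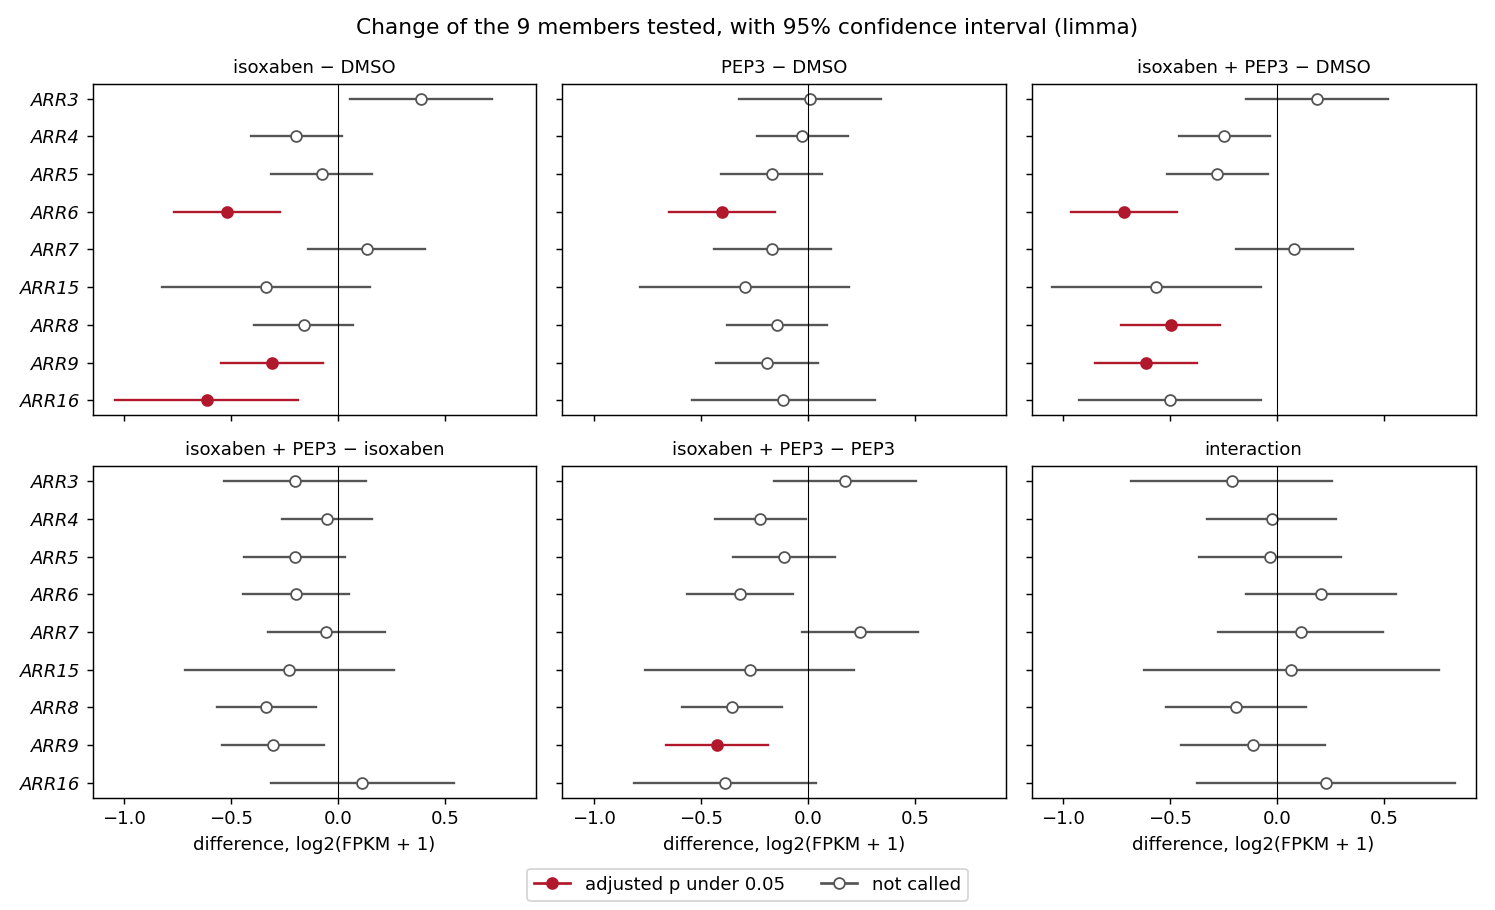
Difference on the log2(FPKM + 1) scale (horizontal axis) with its 95% confidence interval for the 9 members tested in the 6 comparisons, with filled red points for an adjusted p under 0.05. ARR6 is filled in all 3 comparisons with DMSO, ARR8 in isoxaben plus PEP3, ARR9 in that comparison, in isoxaben and in isoxaben plus PEP3 against PEP3, and ARR16 in isoxaben, and all filled points lie below 0.

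Across the 12 libraries 7 members were correlated above 0 with each other, and ARR3 and ARR7 were correlated above 0 only with each other. ARR8 and ARR9 had the highest correlation of log2(FPKM + 1), r = 0.91, followed by ARR5 and ARR8 at 0.84, ARR6 and ARR8 at 0.81 and ARR8 and ARR15 at 0.80. The correlation of ARR8 and ARR9 was 0.70 after the mean of each treatment was removed, and that of ARR5 and ARR8 was 0.77. Some other pairs kept their values, such as ARR8 and ARR15 with 0.80 over the libraries and 0.73 after removal, and ARR9 and ARR16 with 0.75 and 0.78. Others did not: ARR6 and ARR9 had 0.77 and 0.09, ARR4 and ARR6 had 0.61 and 0.21, and ARR3 and ARR4 had -0.15 and 0.40. ARR3 had its highest correlation with ARR7, r = 0.58, and its lowest with ARR16, r = -0.70. Of the 36 pairs, 22 were above 0. All pairs share the same 12 libraries and their scaling, and these values are descriptions.

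**Figure D3:**
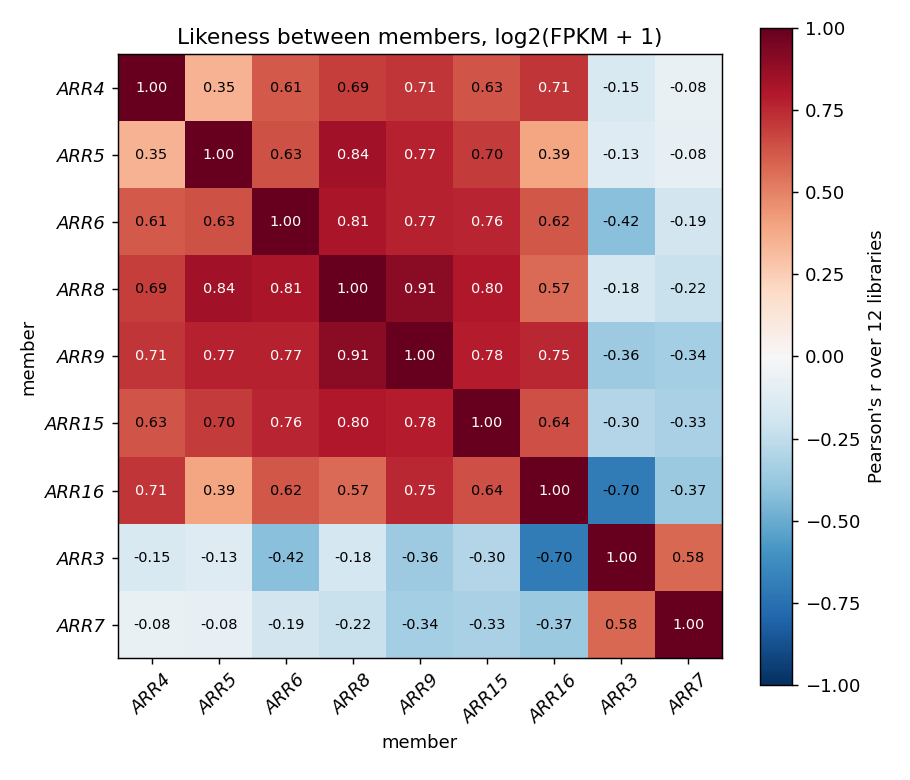
Pearson's r of log2(FPKM + 1) over the 12 libraries for each pair of the 9 members tested (colour scale and printed values). ARR4, ARR5, ARR6, ARR8, ARR9, ARR15 and ARR16 form a block above 0, and ARR3 and ARR7 are above 0 with each other and below 0 with all the others.

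The genes outside the family whose pattern was most like the mean standardised profile of the 9 members, among 16963 candidates with a mean of at least 2 FPKM, were bHLH115 (AT1G51070), a basic helix-loop-helix factor, at r = 0.95, AT1G06267 at 0.92, AT2G13820, named XYP2 in RefSeq, at 0.91, and AT4G18570 and AT4G35850 at 0.90 each, over 12 libraries. ARR3 and ARR7 themselves hardly correlated with that profile (r = -0.12 and -0.00440), so it mainly describes the other members. AT1G06267 is a small nucleolar RNA of 77 bases with 0 to 16 fragments per library. bHLH115 had 66.4 ± 2.78 FPKM in isoxaben plus PEP3, 71.2 ± 1.88 FPKM in isoxaben and 70.3 ± 5.27 FPKM in PEP3, against 75.0 ± 0.279 FPKM in DMSO (SD, n = 3 each), a far smaller relative difference than that of ARR6.

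Of 55 other genes of the cytokinin pathway, from receptors to hormone breakdown, 38 were high enough to be tested. Isoxaben against DMSO called 5 of the 38 higher and 7 lower, PEP3 called 1 higher and 4 lower, and isoxaben plus PEP3 called 5 higher and 7 lower. Of all genes tested, 32.5%, 14.3% and 31.4% were called in these comparisons, and 15.2%, 6.45% and 14.4% were called lower. The shares of the 38 genes called in either direction were near this background. Isoxaben plus PEP3 against isoxaben called 1 higher and 3 lower, beside 7.41% of all genes called. Against PEP3 it called 1 higher and 2 lower, beside 8.26% of all genes called. The median difference of the 38 genes in isoxaben was 0.000463, beside the -0.20 of the type-A members.

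Among the 3 receptors, AHK4, also known as CRE1, fell in isoxaben and in isoxaben plus PEP3. It had 4.99, 4.08 and 4.26 FPKM in isoxaben plus PEP3, 5.84, 5.59 and 6.00 FPKM in isoxaben and 6.23, 5.84 and 6.80 FPKM in PEP3, against 7.93, 7.25 and 7.19 FPKM in DMSO. All 9 treated libraries lay below all DMSO libraries for AHK4, and the same held for AHK2. Libraries wholly below DMSO were found for 22.2% of all genes in isoxaben, 15.4% in PEP3 and 21.8% in isoxaben plus PEP3. AHK4 fell by 0.64 in isoxaben plus PEP3 (limma adjusted p = 0.000134) and by 0.31 in isoxaben (0.0178), while its difference of -0.21 in PEP3 did not pass (0.146). It was lower in isoxaben plus PEP3 than in isoxaben (-0.33, 0.0459) and than in PEP3 (-0.42, 0.0103). AHK2 fell by 0.46 in isoxaben (0.00822) and by 0.38 in isoxaben plus PEP3 (0.0249), and AHK3 passed no test. Isoxaben thus called 2 of the 3 receptors lower, beside 15.2% of all genes, and isoxaben plus PEP3 called 2, beside 14.4%.

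Between receptor and target, isoxaben called 1 of 6 phosphotransfer proteins, 1 of 6 tested type-B regulators and 2 of 6 cytokinin response factors, beside the 32.5% of all genes. Of the phosphotransfer proteins, AHP5 rose by 0.32 in isoxaben (limma adjusted p = 0.0275), and of the type-B regulators, ARR14 fell by 0.40 (0.0224). Among the cytokinin response factors, AP2/ERF factors that act beside the type-B regulators, CRF2 fell by 0.43 in isoxaben (0.00171), and CRF1 fell by 0.42 in isoxaben (0.0323) and by 0.54 in PEP3 (0.0191).

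Genes of hormone synthesis moved in both directions. Of the isopentenyltransferases, which make the first cytokinin intermediate, IPT5 fell by 0.42 in isoxaben (limma adjusted p = 0.0399) and by 0.59 in PEP3 (0.0154), IPT3 fell by 0.31 in isoxaben (0.0281), and IPT7 rose by 0.68 in isoxaben (0.00862). CYP735A2, a hydroxylase that makes trans-zeatin precursors, fell by 0.77 in PEP3 (0.00472). Among the LOG enzymes, which release the active hormone, LOG7 rose by 0.46 in isoxaben (0.0368), and in PEP3 LOG8 rose by 0.27 (0.0104) and LOG4 fell by 0.62 (0.0350).

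Under isoxaben alone, the widest differences in the pathway were in cytokinin oxidases, the enzymes that degrade the hormone. In the other 2 treatments against DMSO, genes of other roles differed more. CKX4 had 2.99, 3.94 and 3.73 FPKM in isoxaben plus PEP3, 8.37, 9.31 and 6.58 FPKM in isoxaben and 1.82, 1.78 and 2.02 FPKM in PEP3, against 2.08, 2.32 and 2.00 FPKM in DMSO. The isoxaben libraries stood above all others, and the isoxaben plus PEP3 libraries lay between them and DMSO. CKX4 rose by 1.53 in isoxaben (SE 0.125, limma adjusted p = 7.63e-07), and in isoxaben plus PEP3 against isoxaben it fell by 0.99 (0.000474). Its interaction of -0.87 (SE 0.177, adjusted p = 0.0125) was the only one called among the 38 pathway genes. CKX5 rose by 0.85 in isoxaben (0.000500), and the other 3 tested oxidases passed no test in isoxaben.

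**Figure D4:**
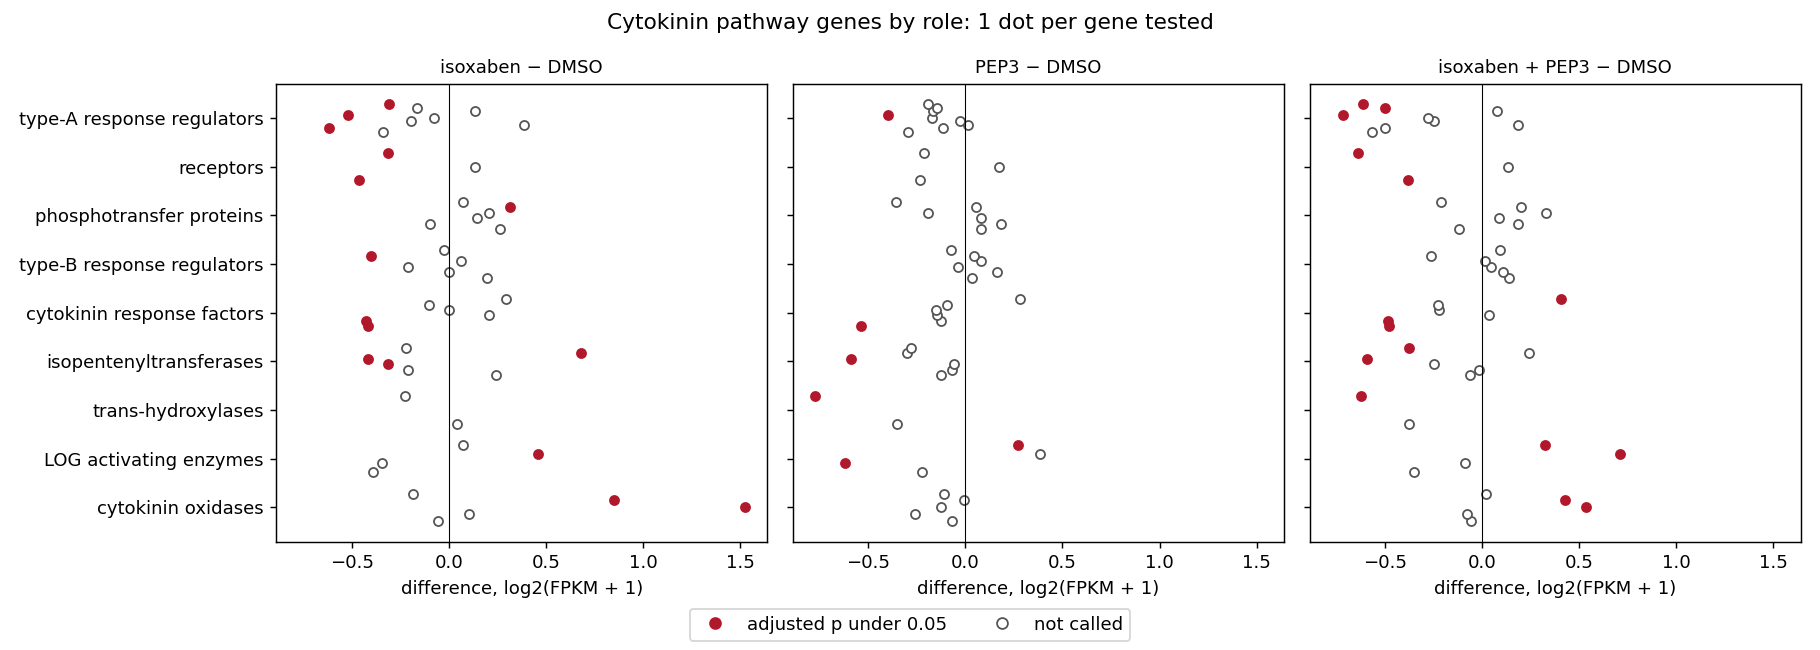
Difference on the log2(FPKM + 1) scale (horizontal axis) of each tested gene of the cytokinin pathway, 1 dot per gene in rows by role, for the 3 treatments against DMSO, with filled red dots for an adjusted p under 0.05. The called type-A members and receptors lie below 0, and the called cytokinin oxidases lie above 0, up to 1.53 for CKX4 in isoxaben.

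Libraries held between 16995775 and 22793764 fragments assigned to genes, and between 22776 and 23068 genes were above 0. Of 8 marker lists for seedling organs and tissues, none had a gene at 0 in all 12 libraries, and the lists of shoot and root were both present in the whole seedlings. The shoot meristem genes WUS and CLV3 were at 0 in 9 and 7 libraries. Of the 31 marker genes tested, isoxaben called 7 lower, PEP3 2 and isoxaben plus PEP3 4, and none higher, beside 15.2%, 6.45% and 14.4% of all genes called lower. The summed level of the 4 shoot apical meristem markers was 9.29 to 9.50 FPKM in isoxaben plus PEP3, 7.61 to 9.02 FPKM in isoxaben and 11.1 to 12.6 FPKM in PEP3, against 10.3 to 11.9 FPKM in DMSO, and its homeobox gene STM fell by 0.67 in isoxaben (limma adjusted p = 0.00110). The 5 leaf photosynthesis genes summed to 16727 to 16892 FPKM in isoxaben plus PEP3, 15238 to 17080 FPKM in isoxaben and 17012 to 18834 FPKM in PEP3, against 18976 to 19753 FPKM in DMSO. The 4 procambium markers summed to 22.5 to 28.1 FPKM in isoxaben plus PEP3, 21.4 to 25.3 FPKM in isoxaben and 22.7 to 25.6 FPKM in PEP3, against 26.1 to 28.7 FPKM in DMSO. The shoot meristem sums lay below DMSO in both groups with isoxaben, and the leaf sums did so in all 3 treated groups. The procambium sums lay below DMSO in isoxaben and in PEP3. Xylem sums did so in PEP3 alone, at 51.9 to 56.9 FPKM against 57.1 to 65.6 FPKM in DMSO. The sums of the root hair, root endodermis, root apical meristem and phloem lists overlapped with DMSO in all 3 treated groups. RBCS1A, with a mean of 16306 FPKM in DMSO, made up most of the leaf sum. KNAT1, at 7.91 FPKM, made up most of the shoot meristem sum. Neither gene passed the test in any treatment against DMSO, while RCA and RBCS1B of the leaf list were called lower in all 3. The part of these lists in the lower levels of ARR6, ARR8, ARR9 and ARR16 was not tested.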

How the data were processed

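The data were 12 poly(A) RNA sequencing libraries, and their values were deposited as FPKM for 32833 genes in a single table that also holds gene positions and lengths. HISAT2 2.0.5 and the TAIR10 build are named in the submitters' processing notes; the counting program, strand setting and annotation were not given in the sources used here. Coordinates are those of the deposited table, and all 10 members had the same start and end in TAIR10.1, from which promoters were read. Depth was recovered from the FPKM, since multiplying by gene length gave whole fragments for 100% of values (within 0.01 fragments).

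FPKM are not counts, so limma 3.58.1 in R 4.3.3 (lmFit, eBayes with a trend) was run on log2(FPKM + 1), with 1 mean per treatment, no covariates and 8 residual degrees of freedom. Tested were the 20248 genes averaging 0.5 FPKM or more, and all differences are on this scale, which understates changes of low genes. Benjamini-Hochberg adjustment of p-values ran over all genes within each of 6 comparisons, and genes under 0.05 were called. The interaction was (isoxaben plus PEP3 - isoxaben) - (PEP3 - DMSO). Of the members, 9 passed the filter, and ARR17 did not.

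The members and gene lists were chosen with earlier results of these data known. All members were named whatever their values, with up to 3 called genes per pathway role in isoxaben or PEP3 against DMSO and the 5 most alike other genes. AHK3 and the overlapping genes are named beside these, and STM was chosen after its values were seen. Alternatives were pseudocounts of 0.1 and 0.5, no filter, a filter at 2 FPKM, TPM, quantile normalization, the compared groups only, a replicate block, voom on the recovered fragments and leaving out each library. The fit was tested on simulated data. Python 3.11.15, numpy 2.4.6, pandas 2.3.3, matplotlib 3.10.9, Biopython 1.88 and BLAST 2.17.0 were used for the rest.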

Additional observations from a re-analysis of the deposited data

How the results depend on the processing

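ARR6 in isoxaben and ARR6, ARR8 and ARR9 in isoxaben plus PEP3, each against DMSO, were called under all 21 alternatives run, with limma adjusted p up to 0.0179, 0.00247, 0.0157 and 0.00503. The calls of ARR6 in PEP3 (14 of 21), ARR9 (12) and ARR16 (16) in isoxaben and ARR9 in isoxaben plus PEP3 against PEP3 (15) were not kept by all, and no direction reversed among the members named.

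Members called were 3 in isoxaben against DMSO, with 1 when no filter was used and 1 to 4 when 1 library was left out. For PEP3 the count was 0 without the filter and 0 to 1 with 1 library left out. In isoxaben plus PEP3 against DMSO it was 5 with the compared groups only, 5 with quantile normalization, 6 with voom and 3 to 5 with 1 library left out. Against PEP3 it was 0 with the compared groups only or no filter, 2 with quantile normalization, 2 with the replicate block, 2 with voom, and 0 to 2 with 1 library left out. Against isoxaben voom called 1.

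Over all genes, isoxaben plus PEP3 against isoxaben called 931 with the compared groups only, in place of 1501, and 875 to 1483 with 1 library left out. With 1 library left out, PEP3 called 1623 to 3064 (lowest without DMSO replicate 1), isoxaben plus PEP3 against PEP3 1007 to 1918 (lowest without isoxaben plus PEP3 replicate 2) and the interaction 668 to 1498 (lowest without DMSO replicate 1). The interaction was not fitted with the compared groups only, since it needs all 4.

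With the replicate block, members called were 4 in isoxaben, 1 in PEP3 and 4 in isoxaben plus PEP3 against DMSO. The added calls were ARR3 in isoxaben, higher by 0.39 (adjusted p = 0.0356), ARR5 in isoxaben plus PEP3, lower at -0.28 (0.0335), and ARR8 against PEP3, lower at -0.35 (0.0463). Same-numbered libraries of different groups had correlations of their deviations between -0.110 and 0.103, and 4 of 12 libraries correlated best with their own number, so the numbers were not taken as pairs. The depth limits ARR15, with 3 to 29 fragments per library, and ARR17, with 0 to 5.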
